A study of Mus musculus with 16 samples.

Results

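The genes described here encode oxidative phosphorylation, the electron transport chain and ATP synthase of the inner mitochondrial membrane. They were chosen by symbol (mt-Nd, mt-Co, mt-Cyt and mt-Atp for the genes on mitochondrial DNA; Nduf, Sdh, Uqcr, Cox and Atp5 families for those in the nucleus, without names that end as pseudogenes) and by a mean level of at least 1 CPM (read count scaled to the size of its library) over 15 of the 16 libraries, all but App_NCD 553. Of 53801 genes in the table, 96 symbols matched and 93 passed the level: 13 mitochondrially encoded and 80 nuclear, with 37 of the latter in complex I, 4 in complex II, 8 in complex III, 15 in complex IV and 16 in complex V. The 3 that did not pass were Cox4i2 (0.795 CPM), Cox7b2 (0.0554 CPM) and Cox8c (0 CPM), and the nearest inside were Ndufa4l2 (1.98 CPM) and Cox7a1 (2.47 CPM). Complexes are assigned by symbol, so Ndufa4, a subunit of complex IV, is counted with complex I, and Atp5s, a coupling factor, with complex V. All 93 passed the filter on low counts and were tested.

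Complex I takes electrons from NADH and complex II from succinate, complex III passes them to cytochrome c and complex IV to oxygen, while complexes I, III and IV pump the protons that drive ATP synthase, complex V. Mitochondrial DNA encodes core membrane subunits of every complex except complex II, as long transcripts from both strands that are cut into separate messengers, and the other subunits come from the nucleus. Mature oligodendrocytes are thought to use glycolysis extensively and to hand lactate to axons, and their precursors to depend more on respiration.

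RNA was measured in oligodendrocytes, the glia that make myelin, taken from brain by magnetic cell sorting. All mice were male: 8 were wild type (C57BL/6J Jcl), of which 4 ate a control diet (WT_NCD) and 4 a high-fat diet (WT_HFD), and 8 were App knock-in, again with 4 per diet (App_NCD and App_HFD). The knock-in, App NL-G-F/NL-G-F, is homozygous and carries a humanized amyloid-β sequence with the Swedish, Beyreuther/Iberian and Arctic mutations in the mouse App gene, under its own promoter. Fat supplied 12.5% of the energy in the control diet (CE-2, with 345.0 kcal in 100 g) and 60.0% in the high-fat diet (D12492, with 524 kcal in 100 g), each given for 6 months from 2 months of age, so that all mice were sampled at 8 months. All mice were killed with an overdose of medetomidine, midazolam and butorphanol and perfused with saline. Numbers after a group name are the mouse numbers in the labels. Poly(A) RNA was used for directional libraries. The p-values below measure the spread between these mice.

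Totals ran from 64538297 to 217925484 counts. The 15 oligodendrocyte markers summed to 30630 to 50970 CPM. Of 10 neuron markers, the 4 with a mean of at least 1 CPM summed to 21.7 to 102 CPM, with Tubb3 at a median of 62.4 CPM. Rbfox3 and Slc17a7, at 0 in some libraries, are not in that sum. RNA of other cells was present too: 8 ependyma and choroid plexus markers summed to 7086 to 36610 CPM, most of it Ttr (6450 to 33600 CPM), and 5 erythroid markers to 147 to 9145 CPM. The 10 astrocyte markers summed to 2113 to 7001 CPM, and microglia markers are given further below. App_NCD 553 stood apart, with 18928 genes above 0 against 27151 to 30617 in the other libraries, so the main genotype results are given with and without it. App was measured at 2413 to 4070 CPM in wild type and 1985 to 2530 CPM in knock-in libraries, which does not check the knock-in label. In bulk RNA, fewer cells of a type and less RNA per cell cannot be told apart.

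Sequences show where the counts of the mitochondrially encoded genes are ambiguous. A stretch of chromosome 1 holds copies of mt-Co1 (in part), mt-Co2, mt-Atp6, mt-Co3, mt-Nd3, mt-Nd4l and mt-Nd4 (in part), annotated as Gm29216, Gm28661, Gm10925, Gm28437, Gm28438, Gm10222 and Gm28439. Over the bases that align, 5 were 100% identical to the mitochondrial gene. Gm28438 differed from mt-Nd3 by 1 substitution, T3C (mitochondrial base first, counted from 1 at the gene's 5′ end), and Gm29216 from mt-Co1 by A1066T. The first 60 bases of mt-Nd3 (GRCm38, chrM:9459-9518, plus strand) and of its copy (chr1:24613060-24613119, minus strand) are shown with the differing base in capitals.
mt-Nd3: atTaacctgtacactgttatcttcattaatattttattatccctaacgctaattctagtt
Gm28438: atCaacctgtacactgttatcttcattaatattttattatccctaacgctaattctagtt

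The deposited counts of these copies followed those of the mitochondrial genes. Over the 15 libraries, the median ratio of copy to mitochondrial gene was 0.991 for mt-Nd4l, 0.986 for mt-Nd3, 1.01 for mt-Co3, 1.01 for mt-Atp6 and 0.983 for mt-Co2. It was 0.325 for mt-Nd4 and 0.138 for mt-Co1, whose copies are partial. The copies held 0.336% to 1.39% of all counts in the 15 libraries and 8.7% in App_NCD 553, so the levels of these 7 genes are uncertain, and summing the copies in is among the alternatives tried. Mitochondrial genes also share bases with each other on the same strand. The last 43 bases of mt-Atp8, a small ATP synthase subunit, are the first of mt-Atp6, the proton channel subunit (GRCm38, chrM:7927-7969), and reads in them cannot be assigned to either gene.
mt-Atp8 and mt-Atp6: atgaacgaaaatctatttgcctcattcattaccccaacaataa

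Mitochondrially encoded genes stood far above nuclear ones in level per length. Per kilobase of exon (the union of a gene's exons), the 13 mitochondrially encoded genes had a median of 1635 CPM per kb over the 15 libraries (420 to 7297) and the 80 nuclear genes a median of 38.2 CPM per kb (1.81 to 247). The highest was mt-Co1, the catalytic subunit of complex IV (7297 CPM per kb), and the lowest of the mitochondrial set was mt-Nd6 (420 CPM per kb), the single one of the 13 encoded on the light strand. Among nuclear genes, Cox8a (247 CPM per kb), Cox6a1 (238) and Cox4i1 (202), subunits of complex IV around the catalytic core, were highest. In complex V, Atp5a1 stood at 147 CPM per kb and Atp5b at 137, the α and β subunits of the catalytic head. In complex I, Ndufa1 (106 CPM per kb) and Ndufc2 (102), both accessory subunits, were highest. In complex III, Uqcr10 (95.8 CPM per kb) and Uqcr11 (84.6) were highest and Uqcrq lowest (28.8). In complex II, Sdha, the flavoprotein that oxidizes succinate, stood at 66.3 CPM per kb, Sdhd, a membrane anchor, at 41.5, and Sdhb, the iron-sulfur subunit, at 24.0. The nuclear genes lowest per kb were Ndufa4l2 (1.81), Ndufb2 (3.82), Cox7a1 (4.61) and Atp5s (4.83). The order among the highest depends on the length used: per kb of the longest transcript, Cox4i1 (410 CPM per kb) and Atp5b (302) came before Cox8a (278), Cox6a1 (269) and Atp5a1 (172), Uqcrb (117) before Uqcr10 (109.7), Ndufc2 (112) before Ndufa1 (106), and Sdhb (43.7) before Sdhd (41.5).

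Muscle, heart and testis isoforms were low beside the common forms. Cox6a1 averaged 238 CPM per kb and the muscle isoform Cox6a2 16.4. Cox8a averaged 247 CPM per kb, and Cox8b, the muscle isoform in mouse, 21.03. Cox6b1 stood at 114 CPM per kb and the testis isoform Cox6b2 at 9.58. Cox7a2 stood at 46.2 CPM per kb and Cox7a2l at 54.5, while Cox7a1, the heart and muscle isoform, was at 4.61. Ndufa4 was at 68.5 CPM per kb and its homologue Ndufa4l2, a gene known as hypoxia-induced, at 1.81. The 3 genes for the ring subunit c of ATP synthase, Atp5g1, Atp5g2 and Atp5g3, encode the same mature protein and stood at 16.6, 38.4 and 49.4 CPM per kb.

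Levels varied among mice more for some members than for others. Over the 15 libraries the coefficient of variation of CPM had a median of 24.7% for nuclear genes and 27.3% for mitochondrially encoded ones. It was lowest for Sdha (7.99%) and highest for Cox6a2 (92.5%). Cox8b (50.6%), Atp5g2 (50.4%) and Ndufa1 (44.1%) were also variable, and Ndufa10 (8.78%) and Uqcrc2 (10.5%) were steady. Sdha, the steadiest, ran from 250 to 333 CPM over the 15 libraries, with WT_NCD 11 highest. Atp5g2, at the other end, ran from 8.72 CPM in WT_NCD 11 to 124.8 in App_HFD 547.

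Mitochondrially encoded transcripts took a steady share of counts in 14 of the 16 libraries. The share of all counts in the 13 genes was 4.25%, 3.77%, 1.03% and 3.41% in WT_NCD 4, 5, 11 and 12. It was 3.11%, 3.07%, 3.48% and 3.02% in WT_HFD 2, 3, 15 and 16. It was 3.98%, 3.5%, 3.78% and 38.6% in App_NCD 537, 538, 545 and 553, and 3.44%, 2.90%, 3.47% and 2.83% in App_HFD 547, 559, 560 and 561. App_NCD 553 therefore stood far above every other library and WT_NCD 11 far below. The mean share was 3.12 ± 1.43% (SD, n = 4) in WT_NCD, 3.17 ± 0.21% in WT_HFD, 3.16 ± 0.342% in App_HFD and 12.5 ± 17.4% in App_NCD, or 3.75 ± 0.241% (n = 3) without App_NCD 553.

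Nuclear members took less than 1% of counts in every library. Their share was 0.278% in App_NCD 553, 0.442% in App_NCD 537 and between 0.506% and 0.822% in the other libraries, with the highest in WT_NCD 11. By mean log2 CPM over the 80, where abundant genes weigh no more than others, WT_NCD 11 was not the highest (5.72, within a range of 4.78 to 6.05). Mean shares were 0.725 ± 0.0656% (SD, n = 4) in WT_NCD, 0.678 ± 0.0622% in WT_HFD, 0.546 ± 0.226% in App_NCD (0.636 ± 0.169% without App_NCD 553, n = 3) and 0.594 ± 0.0669% in App_HFD. The ratio of mitochondrially encoded to nuclear counts was 139 in App_NCD 553, 9 in App_NCD 537, 1.25 in WT_NCD 11 and 4.28 to 6.27 in the other libraries.

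**Figure D1:**
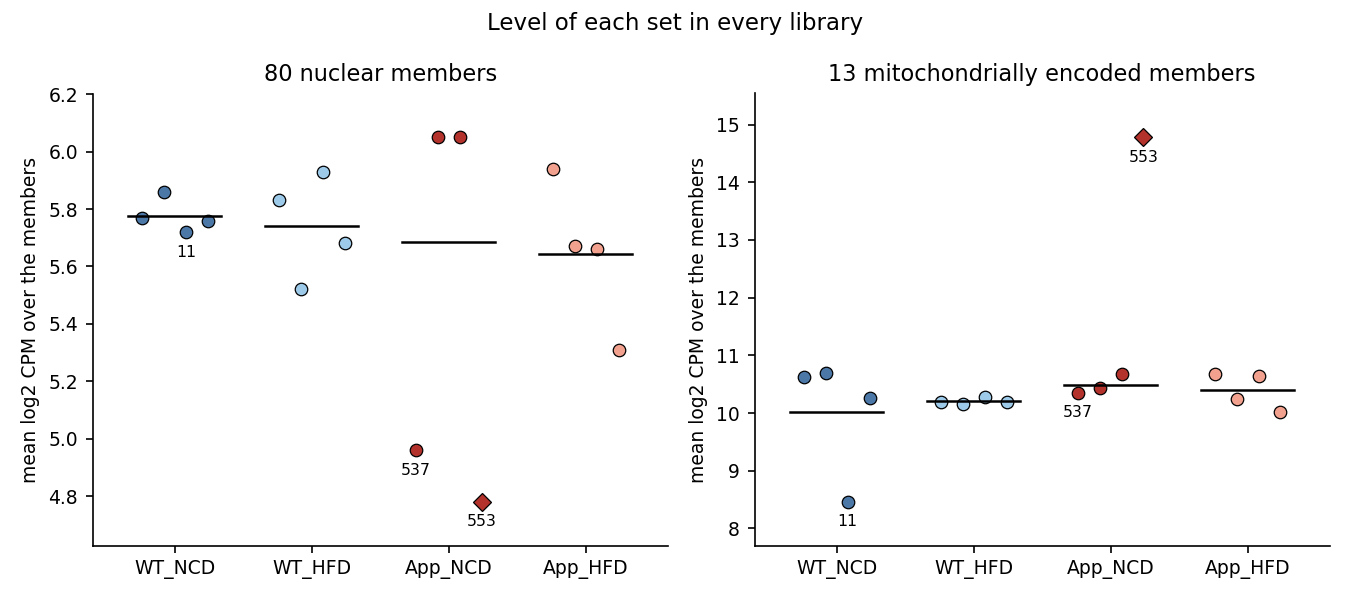
Mean log2 CPM over the 80 nuclear members (left) and the 13 mitochondrially encoded members (right) in each library, by group; circles are libraries, the diamond is App_NCD 553 and bars are group means without it. App_NCD 553 is highest for the mitochondrial set (14.78) and lowest for the nuclear set (4.78), and WT_NCD 11 is lowest for the mitochondrial set (8.46).

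The excess in App_NCD 553 was uneven along mitochondrial DNA. Against the median of the other 15 libraries, 4 genes of complex I were highest, with ratios of CPM of 61.5 for mt-Nd4l, 60.8 for mt-Nd6, 60.5 for mt-Nd4 and 58.8 for mt-Nd5. The ratio was 46.6 for mt-Nd2, 36.6 for mt-Nd1, 27.6 for mt-Cytb (cytochrome b, the mitochondrial subunit of complex III), 25.2 for mt-Co2 and 22.3 for mt-Atp8. It was smaller for mt-Atp6 (11.1) and mt-Co1 (11), and smallest for the neighbours mt-Co3 (2.35) and mt-Nd3 (2.02). This library was the highest of the 16 for 12 of the 13 genes, mt-Nd3 being the exception. The mitochondrial ribosomal RNAs mt-Rnr1 and mt-Rnr2 stood at 5710 and 5320 CPM there, against at most 1100 and 2413 CPM in the other libraries.

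WT_NCD 11 was the lowest library for 12 of the 13, mt-Nd6 being the exception. Its ratio to the median of the other libraries was between 0.143 (mt-Atp8) and 0.628 (mt-Nd6), with a median of 0.234. The level of mt-Nd3 was also low in App_NCD 537, at 0.229 of the median, and in App_HFD 561, at 0.272. The lowest ratio among the other 12 genes was 0.811 (mt-Co2) in App_NCD 537 and 0.622 (mt-Nd6) in App_HFD 561. mt-Nd3 encodes a small core subunit of complex I, and its CPM was 539, 598, 79.8 and 551 in WT_NCD 4, 5, 11 and 12 and 377, 329, 821 and 565 in WT_HFD 2, 3, 15 and 16. It was 124.7, 896, 1226 and 1091 in App_NCD 537, 538, 545 and 553 and 1078, 516, 518 and 148 in App_HFD 547, 559, 560 and 561. All 4 groups overlap for this gene, and each group but WT_HFD has a library at or below 148.

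**Figure D2:**
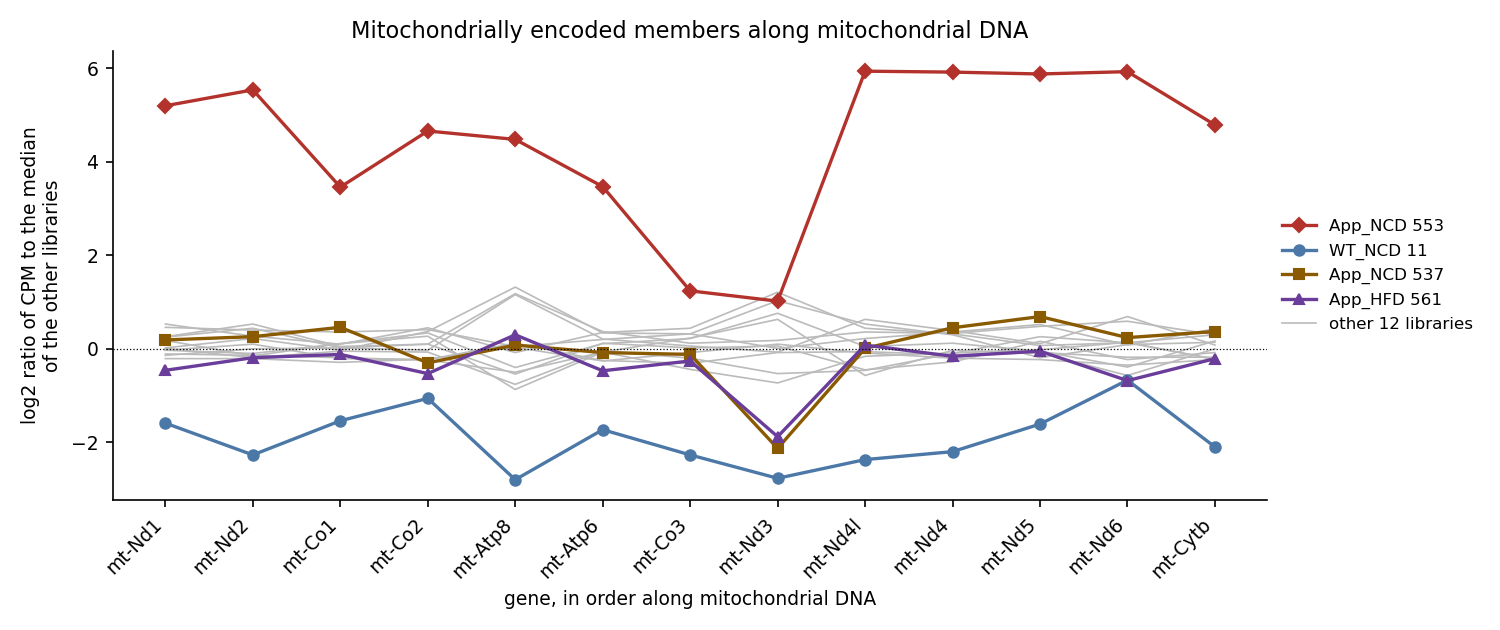
Log2 ratio of CPM in each library to the median of the other libraries for the 13 mitochondrially encoded genes, in their order along mitochondrial DNA; named libraries are coloured and the other 12 grey. App_NCD 553 is raised least at mt-Co3 and mt-Nd3 (1.24 and 1.02) and most at mt-Nd4l (5.94), and WT_NCD 11 lies below 0 at all 13.

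On the control diet, mitochondrially encoded genes were called higher in App mice, and all of these calls rested on App_NCD 553. With 16 libraries, edgeR's quasi-likelihood test called 8 of 13 higher and 0 lower at an adjusted p under 0.05, where 6.5% of all tested genes were called higher and 1.88% lower (8.39% in either direction). The median log2 fold change over the 13 was 3.16, against -0.02 over all genes. Without App_NCD 553, 0 of 13 were called, where 17.5% of all genes were, 0 had an unadjusted p under 0.05, and the median was 0.36. For 0 of the 13 did the 2 groups not overlap, with or without that library.

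The complex I gene mt-Nd4 had the smallest p. Its CPM was 2769, 2716, 492.8 and 1862 in WT_NCD 4, 5, 11 and 12, and 2943, 2341, 2689 and 132500 in App_NCD 537, 538, 545 and 553. Only App_NCD 553 and WT_NCD 11 lie outside 1862 to 2943. With 16 libraries mt-Nd4 differed by a log2 fold change of 4.26 with a standard error of 1.15 (adjusted p = 0.0328), and without App_NCD 553 by 0.44 ± 0.37 (± SE here and below; adjusted p = 0.438).

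The other calls were of the same kind. They were mt-Nd4l (4.37, adjusted p = 0.034), mt-Nd1 (3.5, 0.0388), mt-Nd5 (3.97, 0.0401), mt-Nd6 (4.12, 0.0405), mt-Nd2 (3.77, 0.046), mt-Cytb (3.16, 0.0468) and mt-Co2 (2.96, 0.0492), each a log2 fold change with its edgeR adjusted p. Every called gene, mt-Nd4 included, also lost its call without any 1 of WT_NCD 4, 5, 11 and 12. Of 27 alternatives, 16 called mt-Nd4 and mt-Nd4l, and 7 called each of the other genes just named. The 5 genes that were not called were mt-Co1 (2.08, adjusted p = 0.064), mt-Atp6 (2.00, 0.0833), mt-Atp8 (2.72, 0.105), mt-Co3 (0.78, 0.239) and mt-Nd3 (0.97, 0.377). Without App_NCD 553 the 13 log2 fold changes lay between -0.14 for mt-Atp8 and 0.76 for mt-Nd3. The core catalytic gene mt-Co1 then differed by 0.36 (adjusted p = 0.419).

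On the high-fat diet, 0 of 13 mitochondrially encoded genes were called (7.14% of all genes, 5.09% higher and 2.05% lower), and 0 had an unadjusted p under 0.05. Without App_NCD 553, 0 were called (19.3% of all genes) and 1 had an unadjusted p under 0.05, mt-Atp8. Their median log2 fold change was 0.13, against 0.01 over all genes. The largest difference was that of mt-Atp8: 131, 156.7, 121 and 221 CPM in WT_HFD 2, 3, 15 and 16 and 538, 234, 482 and 266 CPM in App_HFD 547, 559, 560 and 561. These groups do not overlap, with WT_HFD 16 and App_HFD 559 closest. The log2 fold change was 1.29 ± 0.965 (adjusted p = 0.591), and 1.27 ± 0.567 (adjusted p = 0.146) without App_NCD 553, which is in neither group but enters the estimate of spread that all groups share. mt-Nd4l also did not overlap, with 124 to 173 CPM in WT_HFD and 177 to 278 CPM in App_HFD (log2 fold change 0.63, adjusted p = 0.886). Thus 2 of 13 were separate and higher, where 14.1% of all genes were.

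Few nuclear members were called between genotypes on either diet. On the control diet 1 of 80 was called higher and 0 lower (8.39% of all genes in either direction), with a median log2 fold change of -0.16 and 52 of 80 negative. Without App_NCD 553, 2 were called higher and 2 lower (10.2% and 7.22% of all genes), with a median of -0.10 against -0.05 over all genes. On the high-fat diet 2 were called higher and 0 lower (7.14% of all genes), with a median of -0.10 and 60 of 80 negative, and without App_NCD 553 the counts were the same (10.8% and 8.54% of all genes, 19.3% in either direction; median -0.12). Groups did not overlap for 1 nuclear gene that was higher and 8 that were lower in App mice on the control diet, where 6.83% and 9.75% of all genes were so separate. Without App_NCD 553 these were 1 and 11, against 13.2% and 13.8%. With the high-fat diet these were 2 and 8, against 14.1% and 11%. Markers of other cells moved with genotype as well. Without App_NCD 553, 6 of 10 endothelial and 6 of 8 pericyte and smooth muscle markers fell on the control diet, and 4 and 3 on the high-fat diet (with it, 2 and 3, and 2 and 1). On the high-fat diet 4 of 8 ependyma and choroid markers fell (5 without App_NCD 553), from sums of 17760 to 36610 CPM in WT_HFD to 7086 to 14610 in App_HFD. All 5 erythroid markers fell there too, from 389 to 9145 CPM to 147 to 463 CPM, and 0 of either list were called on the control diet. Of 10 astrocyte markers, 1 fell on the control diet, Aldh1l1, and 0 were called on the high-fat diet. Without App_NCD 553, Aldh1l1, Gjb6 and Slc1a3 fell on the control diet, while on the high-fat diet Aldh1l1 fell and Gfap rose. Of 6 precursor markers measured, Cspg4 rose on both diets and Pdgfra fell on the high-fat diet, with and without App_NCD 553. Of 15 oligodendrocyte markers 0 were called on either diet, and without App_NCD 553 Opalin fell on the high-fat diet. The part of these cells in the members' differences was not tested.

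On the control diet the median log2 fold change was -0.16 in complex I, -0.54 in complex II, -0.14 in complex III, -0.01 in complex IV and -0.17 in complex V, and genes outside complex IV were not called. Without App_NCD 553 these medians were -0.09, -0.35, -0.14, 0.07 and -0.28. With the high-fat diet they were -0.10, -0.12, -0.14, -0.04 and -0.18. Signs of medians this small depend on the scaling: with scaling to the oligodendrocyte markers the nuclear median on the control diet was 0.19, where that of all genes moved to 0.39, and with library totals alone it was -0.44, where that of all genes was -0.29.

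**Figure D3:**
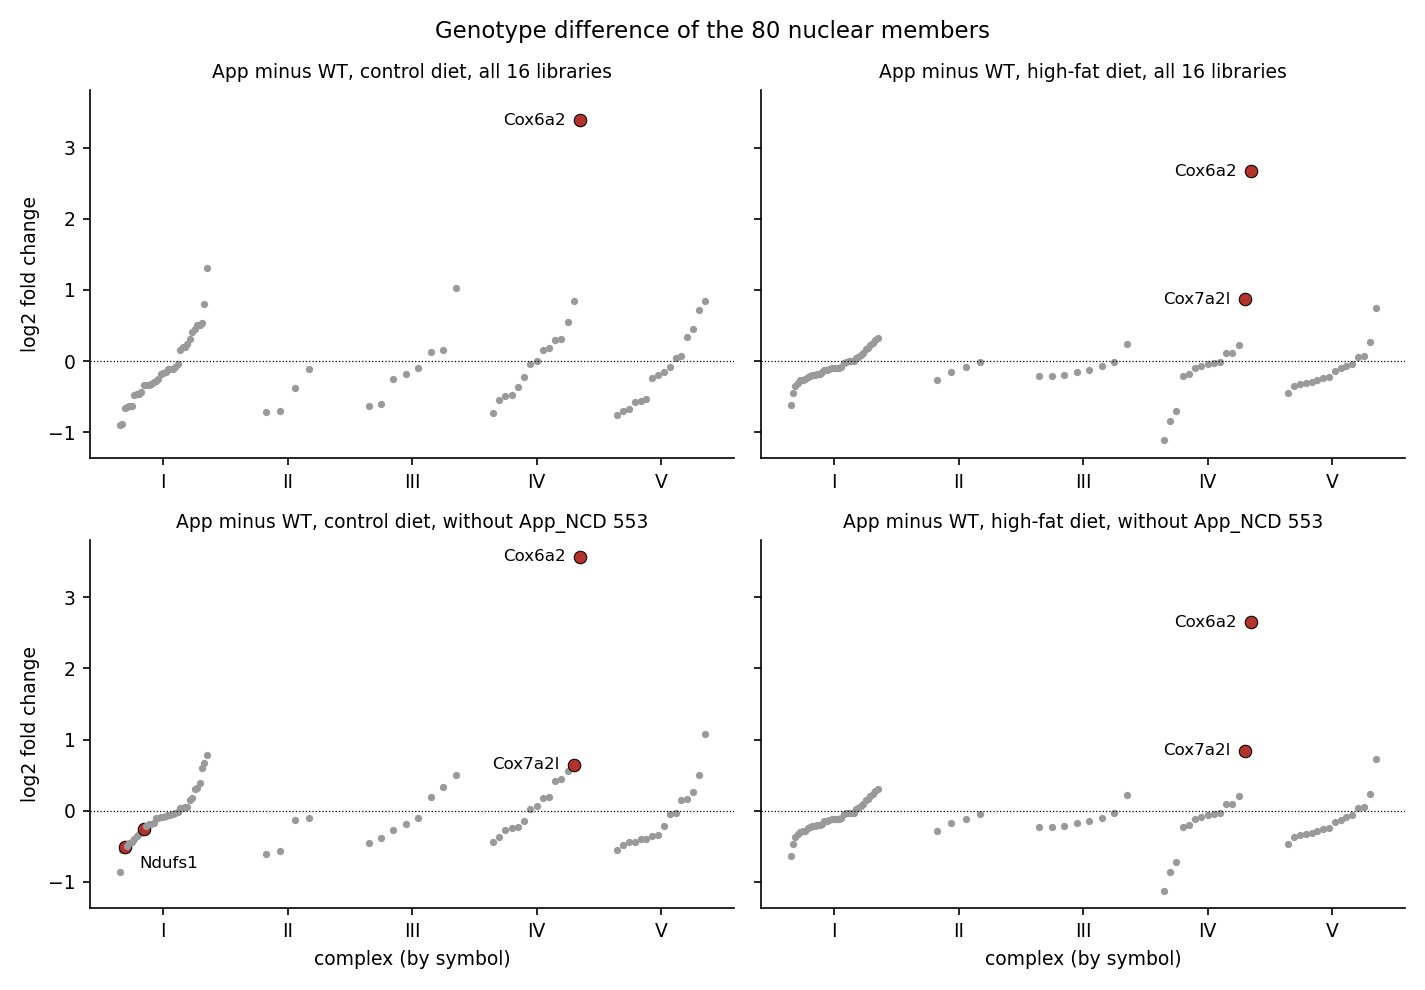
Log2 fold change (App minus WT) of each of the 80 nuclear members by complex, on the control diet and the high-fat diet, with all 16 libraries and without App_NCD 553; coloured points passed an adjusted p of 0.05, and those described in the text are named. Most genes lie near 0 in every complex and Cox6a2 stands alone at 3.39 and 2.67.

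Cox6a2 was the nuclear member with the largest genotype difference on both diets. It encodes the muscle isoform of a small complex IV subunit whose common form is Cox6a1, and lies at chr7:128205435-128206387 (GRCm38, minus strand). Its CPM was 1.95, 2.06, 1.31 and 2.2 in WT_NCD 4, 5, 11 and 12 and 2.28, 3.82, 2.65 and 4.05 in WT_HFD 2, 3, 15 and 16. It was 16.8, 24.0, 26.3 and 9.68 in App_NCD 537, 538, 545 and 553 and 29.0, 21.5, 17.6 and 12.0 in App_HFD 547, 559, 560 and 561. Every App library lies above every wild-type library, and App_NCD 553 is the lowest App library. Cox6a2 rose by 3.39 ± 0.346 (log2 fold change; adjusted p = 1.93e-05) in App mice fed the control diet and by 2.67 ± 0.336 (0.000141) in those fed the high-fat diet. Without App_NCD 553 these were 3.57 ± 0.292 (1.15e-06) and 2.65 ± 0.272 (8.42e-06). As a share of Cox6a1 CPM, Cox6a2 was 0.441% to 3.01% in wild-type and 10.8% to 21.7% in App libraries.

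The common isoform was not called on either diet. Cox6a1 was at 155, 171, 297 and 157 CPM in WT_NCD 4, 5, 11 and 12 and 111, 193, 194 and 44.7 CPM in App_NCD 537, 538, 545 and 553. It was at 135 to 184 CPM in WT_HFD and 90.3 to 191 CPM in App_HFD, so that groups overlap on both diets. Its log2 fold change was -0.49 with the control diet (adjusted p = 0.403), -0.24 without App_NCD 553 (0.593), and -0.01 with the high-fat diet (0.996).

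Markers of microglia moved with Cox6a2 across the genotypes. Of 12 genes of the plaque-associated microglial state, 11 rose on the control diet (12 without App_NCD 553) and 12 on the high-fat diet. Their summed level was 2880 to 4196 CPM in wild-type and 6624 to 14160 CPM in App libraries, and none was at 0 in any library. Cst7, one of them, was at 0.364 to 2.47 CPM in wild-type and 513 to 1110 CPM in App libraries. Of 13 general microglia markers, 9 rose on the control diet (11 without App_NCD 553) and 11 on the high-fat diet, from sums of 3099 to 6928 CPM in wild type to 7865 to 18130 CPM. The part of these cells in the Cox6a2 difference was not tested.

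Cox6a2 also lies among genes for leukocyte integrins. It sits within Itgad (chr7:128154376-128223816, plus strand), which shares 70 of the 680 exon bases of Cox6a2 on the opposite strand, and 54.8 kb from Itgax. Itgax was at no more than 9.40 CPM in wild-type and at 330 to 887 CPM in App libraries, with log2 fold changes of 6.73 (adjusted p = 2.87e-08) and 6.77 (3.63e-08), or 6.91 (1.79e-09) and 6.74 (1.62e-09) without App_NCD 553. Itgad, the overlapping gene, was at 1.99 to 14.8 CPM in wild-type and 2.31 to 23.1 CPM in App libraries and was not called (0.64, adjusted p = 0.359, and 0.81, adjusted p = 0.363; without App_NCD 553, 0.90, adjusted p = 0.0948, and 0.79, adjusted p = 0.117). The sources used here do not say whether counting used strand, so the Cox6a2 count is uncertain in those bases. These neighbours were looked up after the values of Cox6a2 were seen.

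Cox7a2l was the other nuclear member called. It encodes a factor that joins complexes III and IV into a supercomplex, and C57BL/6 mice are known to carry a shortened form of it. Its CPM was 58.1, 50.5, 59.5 and 62.8 in WT_HFD 2, 3, 15 and 16 and 133.0, 105.6, 98.1 and 76.9 in App_HFD 547, 559, 560 and 561. The groups do not overlap, and App_HFD 561 is the nearest to wild type. The log2 fold change with that diet was 0.87 ± 0.216 (adjusted p = 0.0226), and 0.84 ± 0.183 (0.00432) without App_NCD 553. This call was lost with library totals alone and without any 1 of WT_HFD 2, WT_HFD 3, WT_HFD 15, App_HFD 547, App_HFD 559 and App_HFD 560.

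On the control diet, Cox7a2l was at 67.1, 58.2, 76.4 and 57.9 CPM in WT_NCD 4, 5, 11 and 12 and 66.7, 117.0, 120.7 and 63.4 CPM in App_NCD 537, 538, 545 and 553. Here App_NCD 538 and 545 are high and the groups overlap. The log2 fold change was 0.55 ± 0.215 (adjusted p = 0.123), and 0.64 ± 0.194 (adjusted p = 0.0346) without App_NCD 553. Cytosolic ribosomal protein genes moved with Cox7a2l. Their mean log2 CPM was 5.99 to 6.41 in wild-type libraries, 6.29, 7.31, 7.40 and 5.87 in App_NCD 537, 538, 545 and 553, and 7.36, 7.08, 6.86 and 6.56 in App_HFD 547, 559, 560 and 561. Their part in the Cox7a2l difference was not tested.

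Ndufs1 was called lower on the control diet without App_NCD 553. This large subunit of complex I, which holds several iron-sulfur clusters, was at 97.1, 101.6, 152 and 104.5 CPM in WT_NCD 4, 5, 11 and 12 and 72.5, 86.3, 80.7 and 110 CPM in App_NCD 537, 538, 545 and 553. WT_NCD 11 is the high one, and without App_NCD 553 the groups do not overlap. The log2 fold change was -0.33 ± 0.172 (adjusted p = 0.233), and -0.52 ± 0.15 (adjusted p = 0.0291) without App_NCD 553. With WT_NCD 11 left out as well it was not called (-0.30, adjusted p = 0.0919), nor with App_NCD 537 left out as well (-0.46, adjusted p = 0.091). It was -0.26 with the high-fat diet (adjusted p = 0.52) and overlapping groups.

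**Figure D4:**
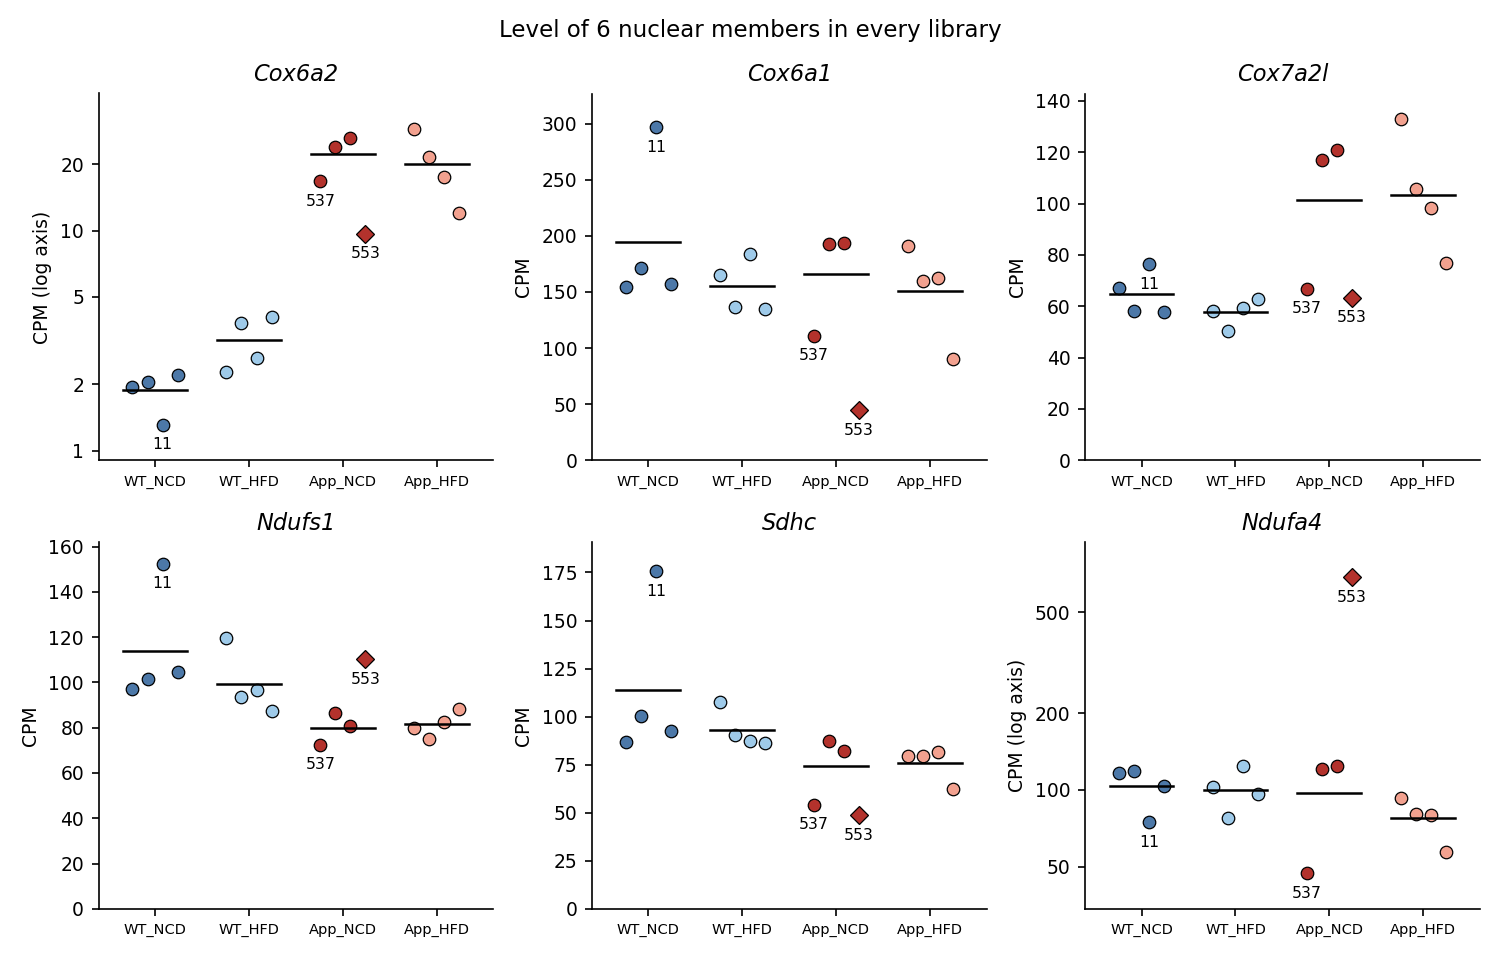
CPM of Cox6a2, Cox6a1, Cox7a2l, Ndufs1, Sdhc and Ndufa4 in each library, by group (log axis for Cox6a2 and Ndufa4); the diamond is App_NCD 553 and bars are group means without it. Cox6a2 is at 9.68 CPM or more in all App libraries and at 4.05 CPM or less in all wild-type ones, and Ndufa4 reaches 684 CPM in App_NCD 553 alone.

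Nuclear members near the threshold were no more frequent than among all genes. On the control diet without App_NCD 553, 19 of 80 had an unadjusted p under 0.05, where 32.6% of all genes did. The 7 named next lay just outside the threshold with lower values in App mice, and Ndufs7, Uqcrc1, Uqcrfs1 and Sdhc among them were named after their values were seen. Their log2 fold changes in that comparison were -0.50 for Ndufs7 (adjusted p = 0.0539), -0.41 for Atp5s (0.0543), -0.27 for Uqcrc2 (0.0548), -0.86 for Ndufa4l2 (0.058), -0.39 for Uqcrc1 (0.0597), -0.45 for Uqcrfs1, the Rieske iron-sulfur protein (0.0628), and -0.62 for Sdhc, a membrane anchor of complex II (0.0695). Sdhc ran from 86.6 to 176 CPM in WT_NCD, with WT_NCD 11 the highest, and from 48.6 to 87.5 CPM in App_NCD. Ndufa4l2 was at 1.85 to 2.81 CPM in WT_NCD and 0.97 to 1.5 CPM in App_NCD, without overlap. None of these 7 passed in either genotype comparison, with or without App_NCD 553.

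No member passed the test for a diet effect. In wild type, in App mice and in the interaction of diet and genotype, edgeR called 0 of 80 nuclear and 0 of 13 mitochondrially encoded genes, where it called 0% of all genes in each. In wild type the median log2 fold change was -0.04 for nuclear and 0.00 for mitochondrially encoded members, and 1 member had an unadjusted p under 0.05, Cox6a2. Its groups did not overlap, with 1.31 to 2.2 CPM in WT_NCD and 2.28 to 4.05 CPM in WT_HFD (log2 fold change 0.77 ± 0.321, edgeR adjusted p = 1), where 1.48% of all genes were separate and higher. The next 3 by p were Atp5a1 (-0.31), Uqcrh, the hinge protein of complex III (-0.34), and Ndufa10, an accessory subunit of complex I (0.15), each with overlapping groups. Over all genes 419 had an unadjusted p under 0.05 in that comparison, and DESeq2 called 7 and limma-voom 6.

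In App mice, diet comparisons depended on App_NCD 553. With it, 10 of 13 mitochondrially encoded genes and 5 of 80 nuclear genes had an unadjusted p under 0.05, and without it 0 and 0 did. The 13 had a median log2 fold change of -3.07 with it and -0.21 without it. The 5 nuclear genes were Ndufa4 (-1.70, adjusted p = 0.391), Uqcrb (-1.36, 0.391), Atp5j (-0.87, 0.392), Ndufs8 (-0.62, 0.406) and Cox6c (-1.0, 0.407), and all 5 were highest in App_NCD 553. Over all genes 2586 had an unadjusted p under 0.05 (1576 without App_NCD 553), and DESeq2 called 102 and limma-voom 161. For the interaction, 9 mitochondrially encoded and 0 nuclear genes had an unadjusted p under 0.05 with 16 libraries, and 0 and 1 without App_NCD 553. The 1 was Cox6a2 (-0.92 ± 0.379, edgeR adjusted p = 1). Over all genes 639 had an unadjusted p under 0.05 (614 without App_NCD 553), and DESeq2 called 3 and limma-voom 0.

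App_NCD 553 held both the lowest and the highest values of nuclear members. It was the lowest of 16 libraries for 41 of 80 and the highest for 11. The 4 highest of these were Ndufa4, at 684 CPM against 47.0 to 124.8 in the others, Cox6c, at 486 CPM against 53.1 to 170.4, Uqcrb, at 362 CPM against 49.8 to 97.8, and Atp5j, at 305 CPM against 60.7 to 113. Ndufa4 and Cox6c are small subunits of complex IV, Uqcrb a small subunit of complex III, and Atp5j a coupling factor of the ATP synthase stalk. At the other end, Uqcr11 was at 2.02 CPM there against 28.6 to 86.8, Atp5g2 at 3.95 CPM against 8.72 to 124.8, and Cox8b at 0 CPM against 1.36 to 14.0.

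Members with short and long transcripts deviated unequally in several libraries of both genotypes. For 39 nuclear members with a longest transcript under 1000 bases, the median deviation from the median library was -1.08 (log2) in App_NCD 553, -0.89 in App_NCD 537 and -0.52 in App_HFD 561. For the 41 longer ones it was -0.78, -0.66 and -0.28. Short ones were also below long ones in WT_HFD 2 (0.01 against 0.19), WT_HFD 3 (-0.32 against -0.15) and WT_NCD 11 (-0.03 against 0.09), and above them in App_HFD 547 (0.17 against 0.01), App_NCD 545 (0.27 against 0.13) and App_NCD 538 (0.26 against 0.14). Over all tested genes short ones were at -0.77 in App_NCD 553 (long ones at -0.27), -0.49 in App_NCD 537 (-0.01), -0.26 in WT_HFD 3 (0), -0.23 in App_HFD 561 (0) and -0.15 in WT_NCD 11 (0.01), and at 0.31, 0.30 and 0.26 in App_NCD 538, App_NCD 545 and App_HFD 547. App_NCD 537 was the lowest library for 25 of 80 nuclear members. WT_NCD 11 was the highest for 30 and the lowest for 8.

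**Figure D5:**
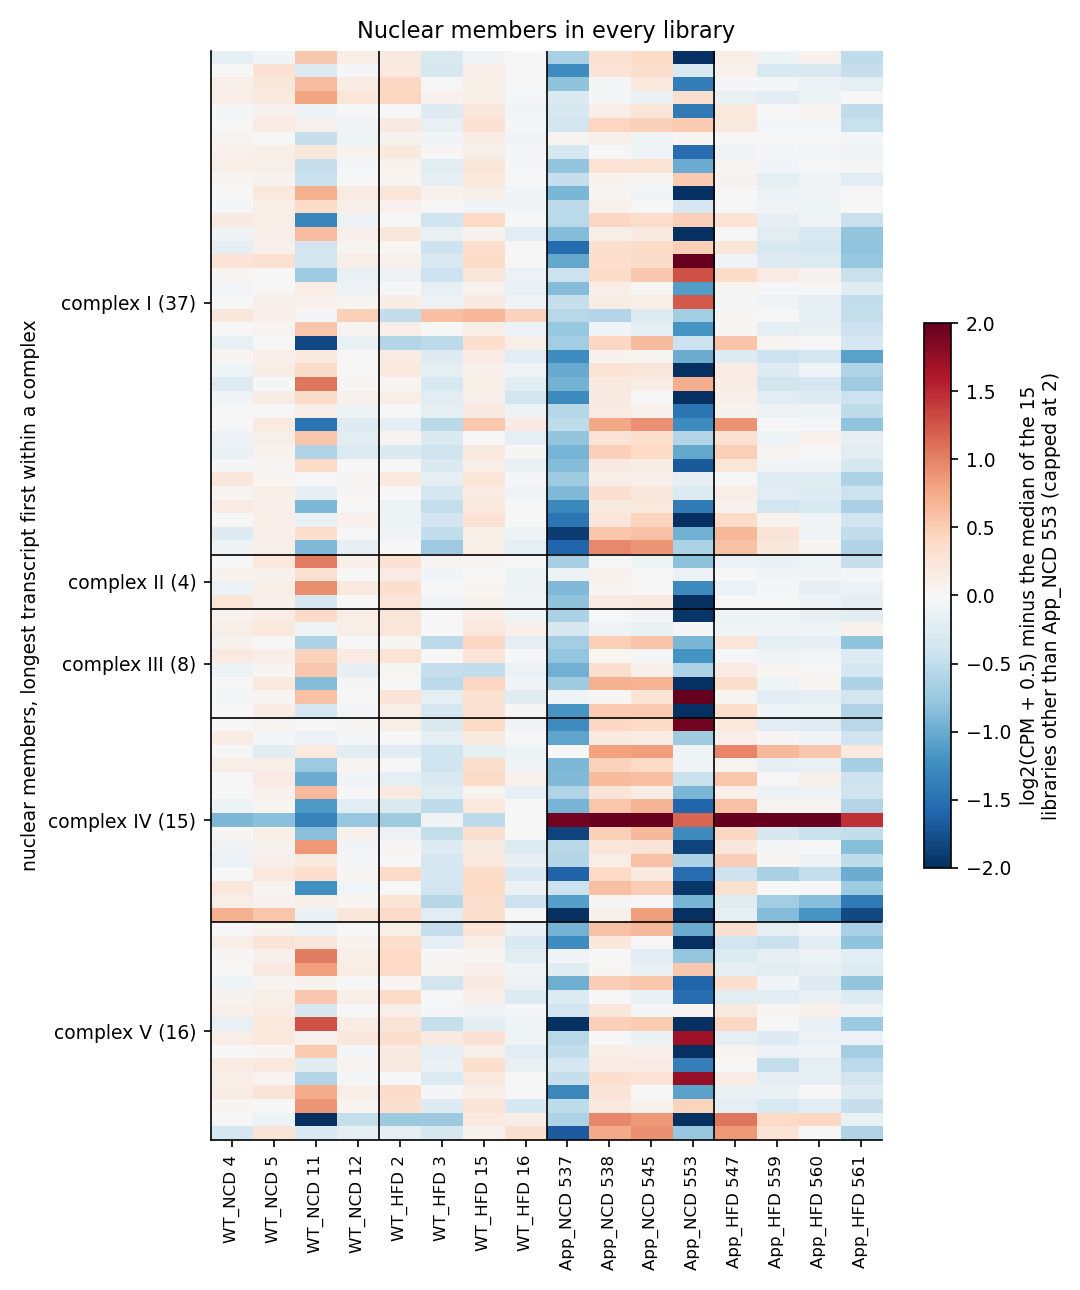
Log2 deviation of each of the 80 nuclear members from its median over libraries, capped at 2 in either direction, with members grouped by complex (longest transcript first) and libraries by group. App_NCD 553 is mixed, with 41 members at their lowest and 11 at their highest, and App_NCD 537 is lowest of all libraries for 25 members.

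Motifs known from respiratory genes were more frequent in promoters of nuclear members than in all promoters, though most members' windows lacked each of them. RefSeq windows (GRCm38.p6, 250 bases before to 50 after the start) were matched for 67 of 80 members, giving 72 windows. The NRF1 motif, searched on both strands like the others, was in 18 of 72 (25%), against 4.6% of all 32851 windows. CCGGAAG, the core of GABPA and other ETS factors, was in 16 (22.2% against 8.86%), and AAGATGGCG, of YY1, in 7 (9.72% against 1.4%). The windows compared against were not matched to the members in level or base composition. The Cox6a1 window holds the first 2 motifs and that of Cox7a2l, which was called, none of the 3. Cox7a2l had 1 window, which lies inside the annotated gene (chr17:83501918-83517330), so bases before its outermost start were not searched. Cox6a2 was among the members without a window. The 250 bases before the start of Cox6a1 (chr5:115348959-115349208, minus strand) and of Cox7a2l (chr17:83514334-83514583, minus strand) are shown, with motif matches in capitals.
Cox6a1: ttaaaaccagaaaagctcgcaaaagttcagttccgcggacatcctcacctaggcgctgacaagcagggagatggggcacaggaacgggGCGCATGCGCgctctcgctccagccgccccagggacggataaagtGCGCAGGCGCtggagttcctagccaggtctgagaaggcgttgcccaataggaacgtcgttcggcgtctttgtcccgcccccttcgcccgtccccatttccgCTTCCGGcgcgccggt
Cox7a2l: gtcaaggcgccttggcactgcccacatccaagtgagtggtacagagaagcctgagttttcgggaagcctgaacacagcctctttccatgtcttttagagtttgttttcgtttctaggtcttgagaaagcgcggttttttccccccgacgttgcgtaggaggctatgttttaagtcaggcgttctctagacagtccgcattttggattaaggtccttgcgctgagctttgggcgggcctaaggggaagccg

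Assembly factors, which put the complexes together, were counted apart for complex I and for complexes II to V. Of 17 for complex I, 0 were called on either diet with 16 libraries. Without App_NCD 553, 1 fell on each diet: Tmem126b on the control diet (-0.48 ± 0.142, adjusted p = 0.0312) and Ndufaf4 on the high-fat diet (-0.49 ± 0.127, 0.0128), where 7.22% and 8.54% of all genes fell. Of 32 assembly factors of complexes II to V, 1 rose and 2 fell on the control diet: Coa5, for complex IV (0.66 ± 0.122, adjusted p = 0.00315), Tmem70, for ATP synthase (-0.57 ± 0.145, 0.0238), and Cox18, for complex IV (-0.54 ± 0.154, 0.0409), where 6.5% of all genes rose and 1.88% fell. The same 3 were called without App_NCD 553. Coa5 rose on the high-fat diet too (0.62 ± 0.122, adjusted p = 0.00502), alone among the 32. The medians were -0.29 for complex I factors and -0.08 for the others on the control diet, and -0.05 and -0.03 on the high-fat diet.

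Of 16 genes for electron carriers and their supply, 1 fell on the control diet, Etfa, an electron transfer flavoprotein subunit (-0.59 ± 0.161, adjusted p = 0.0344), and 0 were called on the high-fat diet. Of 17 genes of the tricarboxylic acid cycle, 1 fell on the control diet, Idh2 (-0.60 ± 0.162, adjusted p = 0.0334), and 0 on the high-fat diet. With 16 libraries, 1.88% of all genes fell on the control diet and 2.05% on the high-fat diet. Without App_NCD 553, 4 carrier and 4 cycle genes fell on the control diet, and 2 and 4 on the high-fat diet, where 7.22% and 8.54% of all genes fell.

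Genes that express mitochondrial DNA were not called with 16 libraries (0 of 18 on either diet). Without App_NCD 553, 2 fell on the control diet, the mitochondrial RNA polymerase Polrmt (-0.47 ± 0.127, adjusted p = 0.0201) and the transcription and packaging factor Tfam (-0.43 ± 0.12, 0.0249), and 1 on the high-fat diet, the transcription factor Tfb2m (-0.42 ± 0.0962, 0.0066). Among all genes in that fit, 10.2% rose and 7.22% fell on the control diet, and 10.8% and 8.54% on the high-fat diet. Of 12 regulators of mitochondrial biogenesis, Pprc1, a coactivator, rose on the control diet (0.56 ± 0.149, adjusted p = 0.0297). Without App_NCD 553, 2 rose and 2 fell on the control diet, Pprc1 (0.39, adjusted p = 0.0295), the nuclear receptor Ppard (0.40, 0.0131), the deacetylase Sirt3 (-0.42, 0.0226) and the nuclear receptor Ppara (-0.59, 0.0445). On the high-fat diet Pprc1 (0.46, 0.00683) and Ppard (0.32, 0.0241) rose then and the coactivator Ppargc1a fell (-0.74 ± 0.18, adjusted p = 0.00877). Of 52 mitochondrial ribosomal protein genes, 1 rose on the control diet, Mrpl39 (0.89 ± 0.26, adjusted p = 0.0468), and 0 were called on the high-fat diet. With 16 libraries, 6.5% of all genes rose on the control diet.

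Of 10 genes for uncoupling and ADP exchange, Ucp2, an inner membrane carrier abundant in immune cells, rose with either diet, by a log2 fold change of 1.15 ± 0.193 (control; adjusted p = 0.00152) and 1.2 ± 0.194 (high-fat; 0.00122). Atpif1, the inhibitor of ATP synthase, rose on the control diet (1.62 ± 0.469, adjusted p = 0.045), a call that was not made without App_NCD 553. Hk1, the hexokinase bound to mitochondria, fell on the high-fat diet (-0.59 ± 0.165, adjusted p = 0.0414) and, without App_NCD 553, on the control diet too (-0.50 ± 0.167, adjusted p = 0.0497). The microglia markers given above rose beside Ucp2, and their part in it was not tested. In the diet comparisons and the interaction, 0 genes of any of these lists were called.

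Some of these genes lie close to App on chromosome 16, the gene that was edited. Atp5j lies 114 kb, Gabpa 85.9 kb and Mrpl39 214 kb from App. Atp5j differed by 0.85 on the control diet (adjusted p = 0.143), by 0.16 (adjusted p = 0.617) without App_NCD 553, and by -0.10 on the high-fat diet. Mrpl39 differed by 0.38 ± 0.103 on the control diet without App_NCD 553 (adjusted p = 0.0211).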

How the data were processed

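The authors deposited 1 table of estimated counts per gene and library, whole numbers that were not scaled between libraries. Per the submitters' processing notes, fastp 0.23.2, HISAT2 2.2.1, StringTie 2.2.1 and bedtools 2.25.0 were used with build mm10. The annotation and the use of strand in counting are not given in the sources used here. StringTie derives counts from coverage, so copies and overlapping genes can share reads: 29 of the 80 nuclear members share exon bases with another gene of the table, 26 of them with one on the opposite strand. Of the gene IDs, 53706 (99.8%) were in GENCODE mouse release 21 (GRCm38), which gave coordinates, exon lengths and overlaps.

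Libraries were scaled by TMM (edgeR 4.0.16, limma 3.58.1, R 4.3.3), and CPM uses those totals, with a prior count of 0.5 on the log2 scale. Genes were filtered with filterByExpr, which left 21768 (22322 without App_NCD 553). The test was edgeR's quasi-likelihood test (robust) fitted to the 4 groups of all 16 libraries, with 12 residual degrees of freedom. P-values were adjusted by Benjamini-Hochberg over all tested genes, with 0.05 as threshold. Each standard error was computed from a gene's log2 fold change and its F value. The procedure was also run on simulated counts in which no library stood apart, which does not check results that depend on App_NCD 553. Libraries held 64538297 to 217925484 counts, and counting error is largest, relative to the level, for the rarest genes.

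Members and lists were chosen with earlier results of these data known. The text names all mitochondrially encoded members. Of nuclear members it names up to 8 called in each direction per comparison, or the 4 with the smallest p where none was called. It also names the 2 highest and the lowest per kb in each complex, the isoform pairs and trios, and up to 4 called genes of each other list, and describes fewer than this allows. Values of 1 nuclear member are not reported here, though counts and medians include it. Alternatives were RLE scaling, library totals, scaling to oligodendrocyte markers, mitochondrial genes removed before scaling, DESeq2 1.42.0, limma-voom with quality weights, no filter, at least 10 counts in every library, the 2 groups alone, and each library left out. Fits without 2 libraries or with the chromosome 1 copies summed in were added after seeing the data.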

Additional observations from a re-analysis of the deposited data

Results flagged for a closer look

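Libraries were checked within each group of 4 for a value far from the other 3 (Dixon's criterion) in 20 quantities: the set measures, the 13 mitochondrially encoded genes and the nuclear genes with calls. Of 80 such checks 17 stood out. Chance gives about 1 in 20 for a single check. That rate is no yardstick for the total: many checks share the same counts, and the nuclear genes were picked by their calls. App_NCD 553 accounted for 13, WT_NCD 11 for 2 and other libraries for 2.

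In App_NCD 553, the share of counts in the 13 mitochondrially encoded genes was 38.6% (3.5% to 3.98% in the other 3 of its group), and their ratio to nuclear counts was 139 (4.66 to 9). The complex I genes were at 89780 CPM (mt-Nd1), 51890 CPM (mt-Nd2), 132500 CPM (mt-Nd4), 11230 CPM (mt-Nd4l), 114900 CPM (mt-Nd5) and 13800 CPM (mt-Nd6). Of complexes III to V, mt-Cytb was at 109200 CPM, mt-Co1 at 127700 CPM, mt-Co2 at 56580 CPM, mt-Atp6 at 21040 CPM and mt-Atp8 at 4931 CPM. The remaining genes, mt-Co3 and mt-Nd3, did not stand out there.

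In WT_NCD 11, mt-Nd3 was low (79.8 CPM, against 539 to 598 CPM) and Ndufs1 high (152 CPM, against 97.1 to 104.5 CPM). In WT_HFD, mt-Atp6 was low in mouse 16 (1645 CPM, against 1872 to 1902 CPM) and mt-Cytb high in mouse 15 (3955 CPM, against 3430 to 3463 CPM).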

How the results depend on the processing

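No paired analysis was possible because the groups share no replicate number. Over 268 alternatives for counts of called members, 224 stayed within 1.5 times the count reported, 44 did not and 0 reversed. All counts in the diet comparisons and the interaction were 0 in all alternatives run. With 1 library left out, nuclear calls ranged from 1 to 6 (control diet) and 1 to 2 (high-fat diet), and mitochondrially encoded calls from 0 to 10 (control diet), with 0 throughout on the high-fat diet. For nuclear members on the control diet (1 called), library totals gave 2 (1 higher, 1 lower), scaling to oligodendrocyte markers 6 (all higher), DESeq2 5 (1 higher, 4 lower) and limma-voom 13 (9 higher, 4 lower). Over all genes the calls were 841 with library totals, 3467 with oligodendrocyte scaling and 7231 with limma-voom, each of 21768. With DESeq2 they were 3398 of 21360. Removing App_NCD 553 with WT_NCD 11 gave 2 nuclear calls (3091 of 22137 over all genes), and with App_NCD 537 gave 5 (3389 of 22778). For mitochondrially encoded members (8 called), library totals, limma-voom, the 2 groups alone, either removal of 2 libraries, and summed copies without App_NCD 553 gave 0 each, and no filter gave 2. Over all genes no filter gave 1288 of 37228. On the high-fat diet, nuclear calls (2) were 1 with library totals, 5 with limma-voom, 6 with the 2 groups alone and 7 without App_NCD 553 and 537. Over all genes these were, in that order, 1176 of 21768, 6672 of 21768, 4816 of 20374 and 4796 of 22778. Mitochondrially encoded calls there (0) were 1 with limma-voom, 2 with the 2 groups alone and 2 without App_NCD 553 and WT_NCD 11 (4921 of 22137 over all genes). DESeq2 gave a p for only 2 of 13 mitochondrially encoded genes, so no count. Over 378 alternatives for single members, 220 kept direction and call, 148 changed call and 10 reversed. Reversals on the control diet were Ndufs1 (0.17, oligodendrocyte scaling), mt-Nd2 (-0.14, without App_NCD 553 and WT_NCD 11), mt-Nd5 (-0.12 with limma-voom, -0.08 in both removals of 2 libraries) and mt-Nd6. The last was -0.15 with limma-voom, and -0.14 and -0.13 in the removals of 2. With 1 library left out it ran from -0.01 (App_NCD 553) to 4.48 (App_NCD 538). It was -0.01 with copies summed and App_NCD 553 removed. Cox6a2 was called in 27 of 27 alternatives on each diet, with adjusted p up to 0.00204 and 0.00296, Cox7a2l on the high-fat diet in 20 of 27, and on the control diet Ndufs1 in 3 of 27. Library totals moved the median of all genes to -0.29 and oligodendrocyte scaling to 0.39 on the control diet. The causes were not tested. Depth limits the rarest members most, such as Cox7a1 and Ndufa4l2.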
